A study of Rattus norvegicus with 18 samples.

Results

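Oral epithelium that had become squamous cell carcinoma (SCC) was compared with epithelium that was still dysplastic in the 4NQO rat model. The comparison used the 3 SCC epithelia samples and the 3 dysplasia epithelia samples of the series, 6 of its 18 samples, chosen by their labels and not by any measured value. Both groups came from male Sprague Dawley rats that drank water with 0.002% 4NQO (4-nitroquinoline 1-oxide, a carcinogen that forms bulky DNA adducts) and were killed between week 14 and week 22. Per the methods they were killed once dysplasia or SCC was visible on the tongue, and the week of each sample is not given. Stage may thus go with a longer exposure and an older age, and these cannot be told apart here. The 3 normal epithelia samples, from rats given distilled water only, entered the statistical fit, and the 6 fibroblast samples of the same 2 stages are used only where a change is set against that in the layer beneath. Per the methods, epithelium was separated from the underlying connective tissue with the enzyme dispase II, and each sample pooled the tissue of 3 rats, so an animal's own value is not seen. The labels do not say that the samples of a stage share no animal, and p-values then measure only the spread between these samples.

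Each sample was read on 1 Affymetrix rat expression array, on which a gene is measured by 1 or more probe sets. All levels below are log2 intensities of a probe set, so a difference of 1 is a doubling. Levels of different probe sets are not compared.

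Squamous carcinoma arises from a stratified epithelium in which basal cells divide and daughter cells differentiate upward. The step from dysplasia to carcinoma is defined by tumour cells crossing the basement membrane, a sheet of laminins, type IV collagen and nidogen. Matrix metalloproteinases cut that sheet and the collagen beneath it, activins and TGF-beta act on growth and invasion, and interleukin-1 (IL-1) drives chemokines that bring in neutrophils and monocytes. The upper surface of the rat tongue bears filiform papillae, whose hard tips are built from keratins and keratin-associated proteins that are otherwise known from hair.

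Epithelial markers were high in all samples. The 19 measured epithelial cell markers had a mean log2 level of 13.08, 13.02 and 13.01 in dysplasia samples 1 to 3 and of 12.90, 12.91 and 13.07 in SCC samples 1 to 3. Of them 0 read under 6 in all samples of either stage. In the fibroblast samples of the same stages that mean was 12.00 to 12.71, so it hardly separates the layers and is no check of the label. The SCC samples were not alike. Markers of fibroblasts (18 genes) stood at 7.62, 6.68 and 6.58 in dysplasia and at 9.12, 11.26 and 7.04 in SCC samples 1 to 3. The 22 macrophage and monocyte markers had means of 7.09, 6.36 and 6.70 and then of 8.29, 9.21 and 6.99. SCC sample 2 was thus highest for both lists, near the 11.47 to 12.54 of fibroblast markers in the fibroblast samples of these stages, and SCC sample 3 lay within the range of the dysplasia samples. Normal epithelia sample 2 was also high in fibroblast markers, at 7.52 against 6.06 and 6.03 in the other normal samples. In bulk samples such as these, fewer cells of a type and less RNA per cell cannot be told apart.

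Between SCC and dysplasia epithelia, 8 of 31042 probe sets (0.0258%) passed limma's test at an adjusted p under 0.05, 4 higher and 4 lower (0.0129% each), and 4402 had an unadjusted p under 0.05. Genes for the collagenase Mmp13, the gelatinase Mmp9 and the activin subunit Inhbb rose. The neurofilament gene Nefh, the hard keratin gene Krt86 and the serine protease gene Prss30 fell. The other 2 probe sets, which rose and fell respectively, are not paired with a gene.

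Mmp13 cuts fibrillar collagen. It read 5.44, 5.38 and 5.24 in dysplasia samples 1 to 3 and 9.58, 8.59 and 8.47 in SCC samples 1 to 3. All SCC values lay above all dysplasia values, SCC sample 1 the highest, and the difference of 3.52 ± 0.30 (SE), 11.5-fold, had an adjusted p of 0.0251 in limma. Mmp9, which cuts gelatin and type IV collagen, read 4.74, 5.76 and 4.91 in dysplasia and 7.22, 7.51 and 7.18 in SCC. The SCC samples lay within 0.33 of each other and above each dysplasia sample, and the difference was 2.16 ± 0.25 with a limma adjusted p of 0.0440. A second Mmp9 probe set differed by 1.95 ± 0.27 with no overlap and a limma adjusted p of 0.0750, so it did not pass.

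Inhbb encodes the beta B subunit of activins and inhibins. It read 6.58, 6.86 and 6.74 in dysplasia and 8.27, 8.69 and 8.15 in SCC. The groups did not overlap, and the difference of 1.64 ± 0.16 had a limma adjusted p of 0.0251. A probe set with no gene name read 6.66, 6.68 and 6.36 and then 7.72, 7.82 and 7.93, a rise of 1.26 ± 0.14 with a limma adjusted p of 0.0388. These 4 probe sets were also ordered by stage, since each normal sample lay below each dysplasia sample.

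Nefh encodes the heavy neurofilament chain of large nerve fibres. It read 8.84, 8.57 and 9.01 in dysplasia and 6.70, 6.77 and 6.99 in SCC, with 8.06, 8.68 and 7.86 in normal epithelia. The SCC samples lay below all others, and the difference from dysplasia was -1.98 ± 0.21 with a limma adjusted p of 0.0388. Of 10 measured markers of Schwann cells and nerve, Nefh alone passed the test. Nefl, the light chain, differed by -0.67 and Mbp, of myelin, by -0.26, both without overlap and with limma adjusted p of 0.146 and 0.448. The change of Nefh from dysplasia to SCC also differed from that in the fibroblast samples (0.80) by limma's interaction term (-2.78 ± 0.38, adjusted p = 0.00563), which passed for 0.651% of probe sets. That fit took the layers as independent, though they may share rats. It also took the fibroblast samples of a stage as independent. In macrophage markers their samples 1 and 2 were close in dysplasia (8.52 and 8.44) and in SCC (9.8 and 9.83).

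Krt86, a type II hard keratin, read 11.95, 12.21 and 11.69 in dysplasia and 9.73, 10.13 and 9.13 in SCC. All SCC values were lower by more than a unit, and the difference was -2.29 ± 0.24 with a limma adjusted p of 0.0388. Prss30, a membrane-anchored serine protease, read 4.71, 4.46 and 4.79 and then 3.50, 3.67 and 3.59, a difference of -1.07 ± 0.12 with a limma adjusted p of 0.0388. Its levels are dim, and its other 2 probe sets differed by 0.10 and -0.10. The second probe set with no gene name read 7.23, 7.79 and 7.25 and then 5.50, 5.72 and 5.76, a difference of -1.76 ± 0.17 with a limma adjusted p of 0.0251.

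**Figure D1:**
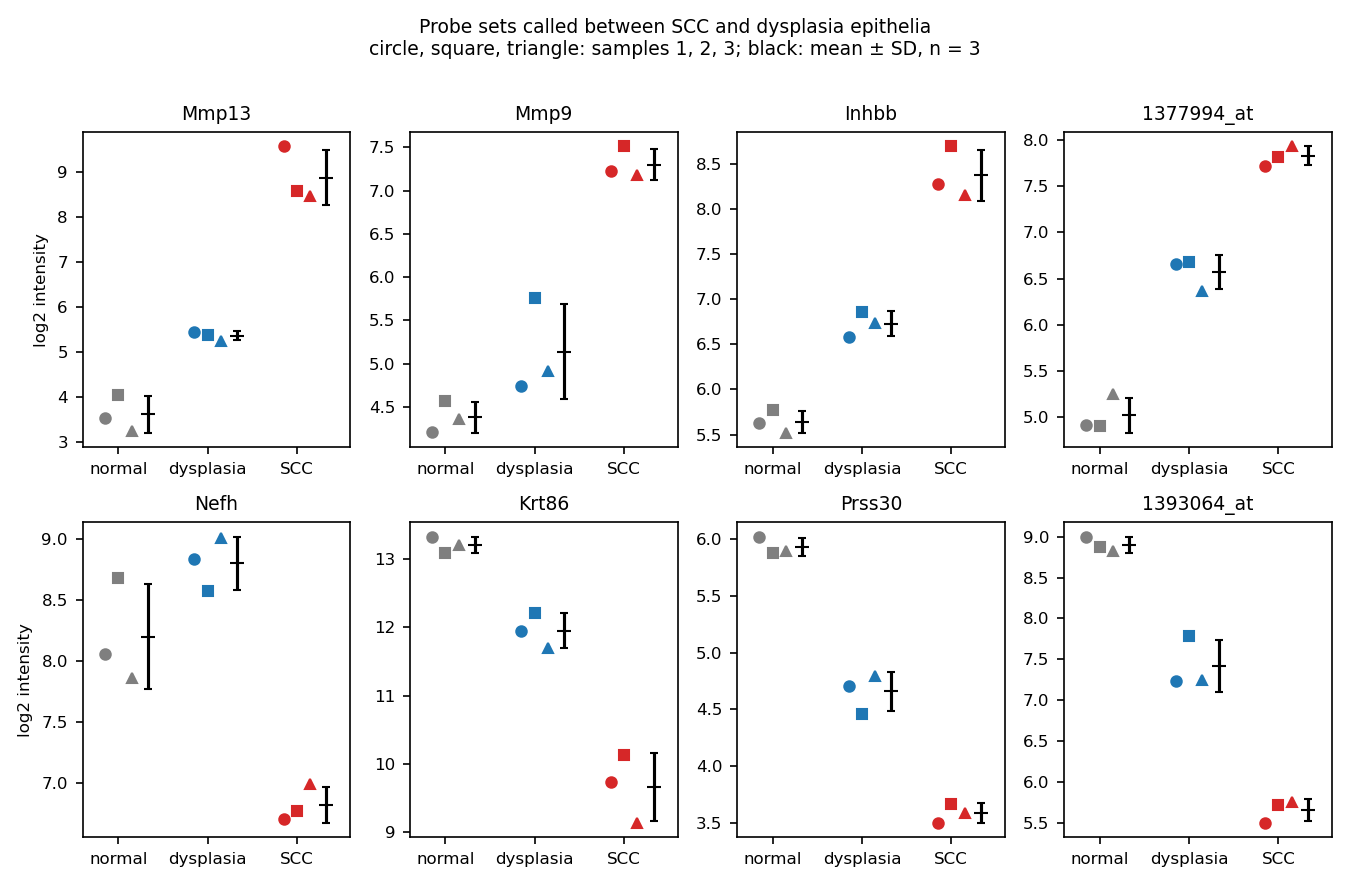
Log2 intensity (y axis, a separate scale per panel) of the 8 probe sets that passed the test between SCC and dysplasia epithelia, for the 9 epithelial samples by stage. Points are samples and black marks are the mean ± SD of 3. In each panel the SCC samples do not overlap the dysplasia samples, as for Mmp13 with 8.47 or more against 5.44 or less.

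The number of calls moved with single arrays. With SCC sample 3 left out 736 probe sets passed (2.37%), 565 higher (1.82%) and 171 lower (0.551%), and the 8 were among them. With dysplasia sample 1 or 3, or normal sample 1 or 3, left out, 0 passed, with 2917 to 3835 at an unadjusted p under 0.05. Without SCC sample 1 or dysplasia sample 2, 2 and 3 passed. With 3 samples a side, the smallest p an exact permutation test allows is 0.10, so none was used as a call.

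The study's methods name a 2-fold or 1.5-fold difference with a detection P under 0.05, and no adjustment. Its results give 1.5-fold for the arrays of a human cell line. Here limma's unadjusted p stands in for that P, so counts said to meet the study's thresholds need not be the study's own. At 2-fold, with limma's p, 646 probe sets (2.08%) met these thresholds, 530 higher (1.71%) and 116 lower (0.374%) in SCC. At 1.5-fold they were 1670, and by the methods' t-test at 2-fold 219. Without regard to size, 2229 probe sets (7.18%) had all SCC samples above all dysplasia samples and 3444 (11.1%) had all below, and with a fold of at least 2 these were 332 (1.07%) and 111 (0.358%). After alignment of the arrays on their spike-in controls, 1196 lay above and 3600 below. The median difference over all probe sets was -0.028. Small differences were thus more often toward lower levels in SCC and large ones toward higher levels. In the gene lists, a count near the shares given next says nothing particular of the members. For these lists 1 probe set stood for a gene. Over those 14217 genes 5 passed the test (0.0352%), 3 higher (0.0211%) and 2 lower (0.0141%), 1216 lay above without overlap (8.55%) and 1683 below (11.8%), 334 met the study's thresholds upward (2.35%) and 58 downward (0.408%), and the median difference was -0.019.

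The proteases were examined as a group. Of 16 measured metalloproteinases, 2 passed the test, both higher, 6 lay above without overlap and 1 below, and the list's median difference was 0.44, or 0.24 without SCC sample 2. Mmp3, a stromelysin that also activates other metalloproteinases, read 5.94, 5.56 and 5.95 in dysplasia and 9.93, 9.90 and 7.51 in SCC. SCC samples 1 and 2 were nearly equal and sample 3 was over 2 units lower, yet above dysplasia, and the difference of 3.30 ± 0.57 had a limma adjusted p of 0.0901. Mmp12, the macrophage elastase, read 8.40, 7.22 and 7.73 and then 10.48, 10.17 and 8.72, a difference of 2.01 ± 0.44. Mmp2, a gelatinase of stromal cells, read 7.64, 6.90 and 6.70 and then 8.55, 11.19 and 7.03. Its groups overlapped, since SCC sample 3 lay inside the dysplasia range, and a second probe set differed by -0.00.

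Among the 10 genes of metalloproteinase inhibition and plasminogen activation, 0 passed the test, 3 lay above without overlap and the median difference was 0.56, or 0.11 without SCC sample 2. Timp1, a secreted inhibitor of metalloproteinases, read 7.25, 6.59 and 7.17 and then 9.81, 11.94 and 7.86, a difference of 2.87 ± 0.82. Plaur, the urokinase receptor, differed by 1.25 ± 0.26 and Plau, urokinase itself, by 0.68 ± 0.25, both without overlap. Another probe set of each overlapped, with 0.01 for Plaur and 0.42 for Plau. Among 12 ADAM and ADAMTS proteases 3 lay above and 0 below without overlap, with a median of 0.32, or 0.14 without SCC sample 2. Adamts4, which cuts aggrecan, read 4.66, 4.57 and 4.60 and then 7.01, 8.57 and 5.26. Adam8 differed by 0.57 on one probe set and by -0.60 on another and is uncertain, and Adam17, which sheds growth factor and cytokine precursors, differed by 0.25. None of these passed the test.

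The sequence before the start of transcription was read from RefSeq on the rat build GRCr8 for the called genes and those with the largest differences, and 25 of 33 genes matched the table. The letters TGANTCA, the usual site of AP-1 factors and their own reverse complement, occurred in the last 150 bases before the start in 5 of the 25 genes and in 1234 of 33469 such windows (3.69%). All 5 are shown, with the match in capitals, since they include both of the metalloproteinases with a promoter at hand. Mmp13 (chr8:12782679-12782828, plus strand), Mmp3 (chr8:12925131-12925280, plus strand) and Slfn4 (chr10:68492070-68492219, plus strand) were higher in SCC, and Lrrc15 (chr11:83974558-83974707, plus strand) and Aox4 (chr9:67255287-67255436, plus strand) were lower. The match began 66, 71, 133, 49 and 90 bases before the start, in that order. For Slfn4 another probe set differed by -0.34, so its direction is uncertain. A match describes the letters only.
Mmp13: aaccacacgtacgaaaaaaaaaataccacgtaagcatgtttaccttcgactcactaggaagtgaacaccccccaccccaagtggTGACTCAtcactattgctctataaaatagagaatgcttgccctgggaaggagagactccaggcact
Mmp3: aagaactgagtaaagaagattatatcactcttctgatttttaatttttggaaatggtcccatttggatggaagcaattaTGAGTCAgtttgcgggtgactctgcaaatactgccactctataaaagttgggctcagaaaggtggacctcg
Slfn4: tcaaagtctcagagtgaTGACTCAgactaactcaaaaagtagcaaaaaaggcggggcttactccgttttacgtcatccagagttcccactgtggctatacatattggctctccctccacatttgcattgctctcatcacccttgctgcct
Lrrc15: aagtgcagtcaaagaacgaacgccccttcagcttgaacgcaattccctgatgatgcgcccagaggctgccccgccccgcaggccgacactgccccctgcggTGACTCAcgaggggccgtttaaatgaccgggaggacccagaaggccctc
Aox4: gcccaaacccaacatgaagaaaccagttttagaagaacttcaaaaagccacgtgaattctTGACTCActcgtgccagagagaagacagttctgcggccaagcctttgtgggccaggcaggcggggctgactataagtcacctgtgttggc

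Activin and TGF-beta genes were measured for 23 members, of which Inhbb alone passed the test. Without overlap 7 lay above and 3 below, and the list's median difference was 0.14. Inhba, the beta A subunit, read 7.84, 7.55 and 7.57 in dysplasia and 8.92, 8.95 and 7.98 in SCC, a difference of 0.97 ± 0.25 (limma adjusted p = 0.177). A second probe set of it read 6.53, 6.97 and 6.38 and then 9.35, 9.73 and 8.10, a difference of 2.43 ± 0.37 (limma adjusted p = 0.0750). Fst, which binds and blocks activins, read 8.31, 8.43 and 8.32 and then 9.30, 8.90 and 8.86. So both activin subunits and the inhibitor were higher in each SCC sample than in any dysplasia sample, and Inhbb was the member that passed. Bambi, a decoy receptor of the pathway, read 9.19, 9.90 and 10.25 in SCC, all below dysplasia, a difference of -1.43 ± 0.32. Tgfb1 differed by 0.56 ± 0.17 without overlap, and Tgfb2 overlapped, with -0.36 ± 0.22 on one probe set and 0.32 ± 0.37 on another.

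Of the BMP genes, 16 measured, 3 lay above and 2 below without overlap and the median difference was -0.24. Grem1, a secreted BMP inhibitor, read 3.72, 3.33 and 3.48 and then 7.60, 9.42 and 3.86, so SCC sample 3 stood just above dysplasia. Id2, a BMP target, differed by -0.52 and Bmp7 by -0.38. In the EGF receptor family (12 genes, median difference 0.05) 2 lay above and 1 below. Areg, amphiregulin, a ligand of the EGF receptor, read 8.91, 8.27 and 8.62 and then 10.20, 9.81 and 9.80. The 3 SCC samples lay within 0.40 of each other, and the difference of 1.34 ± 0.20 had a limma adjusted p of 0.0750. Hbegf, another ligand, differed by 0.68 and Btc, betacellulin, by -0.37.

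FGF and WNT genes (26 measured, median difference -0.19) had 1 member above and 6 below without overlap, against 11.8% below over all genes. Lef1, a transcription factor at the end of WNT signalling, read 10.02, 9.62 and 9.46 and then 7.28, 8.80 and 9.17, a difference of -1.28 ± 0.41. SCC sample 1 was the lowest. The ligand gene Fgf22 differed by -0.87, the receptor gene Fgfr3 by -0.79, and the receptor gene Fgfr1, which stromal cells also express, by 1.84. Notch genes (14 measured) had 0 above and 2 below, again against 11.8% of all genes below. The 2 were Dll4 with -0.36 and Hes1 with -0.29. None passed the test.

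The hard keratins and keratin-associated proteins were lower in SCC. They were brought together by symbol after their values were seen, so their counts are a description. Of 10 such probe sets, 9 lay below dysplasia without overlap, in each of the 9 every normal sample lay above every dysplasia sample, and the median difference was -2.29. Krt86 was the 1 that passed the test. Krt33b, a type I hard keratin, read 13.20, 12.85 and 13.10 in normal epithelia, 11.57, 11.95 and 11.40 in dysplasia and 9.20, 10.16 and 8.67 in SCC. The 3 stages did not overlap, and the SCC minus dysplasia difference of -2.30 ± 0.33 had a limma adjusted p of 0.0750. Krtap1-1 read 11.76, 11.05 and 11.82, then 7.85, 9.52 and 8.59, then 6.12, 6.26 and 5.56. Krtap1-5, of the same high-sulphur family, read 11.44, 10.09 and 11.56, then 7.36, 8.45 and 8.54, then 5.74, 5.86 and 5.48. Krtap14l and the related LOC100363236 differed by -1.80 and -1.70. Krt36 had the smallest difference of the 9, with 13.85, 13.83 and 13.54 in dysplasia and 12.69, 13.31 and 13.01 in SCC. Probe sets of near-identical hard keratins can share sequence, and 2 of the 10 are assigned to Krt31, Krt33a, Krt33b and Krt34 together. SCC sample 3, whose whole profile was the nearest to dysplasia, was the lowest of the SCC samples in 8 of the 9.

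**Figure D2:**
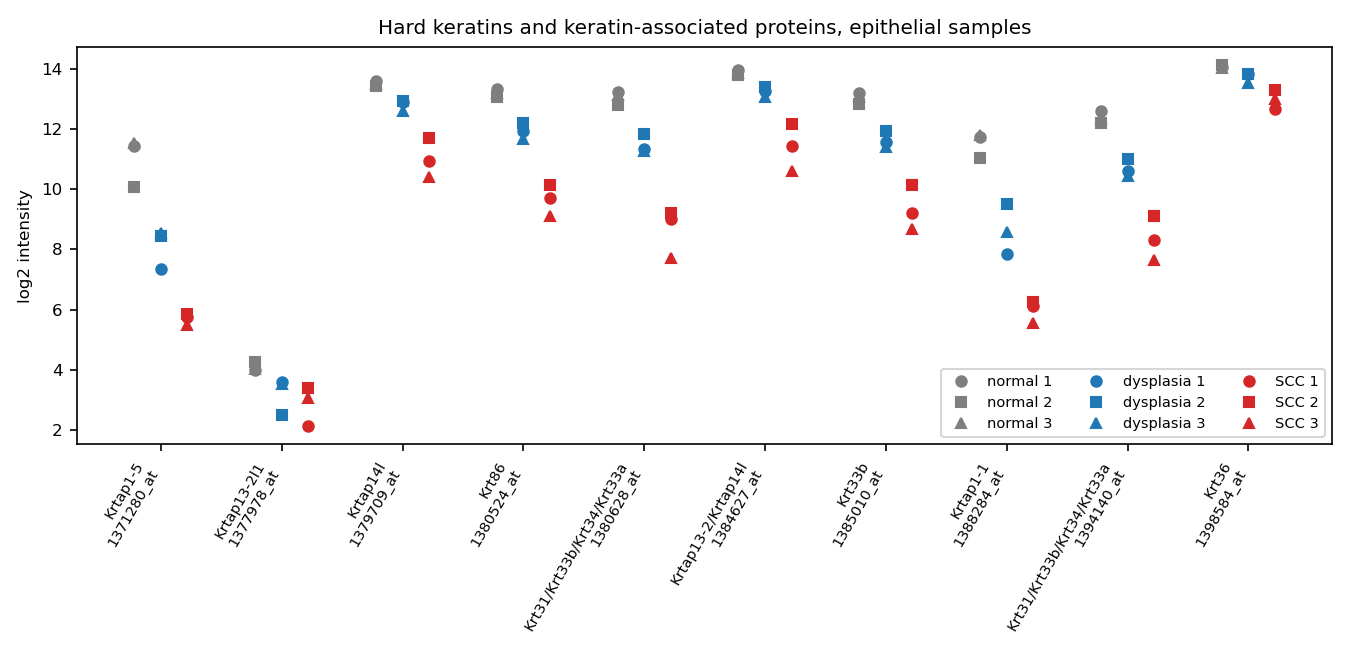
Log2 intensity (y axis) of the 10 probe sets of hard keratins and keratin-associated proteins (x axis, gene and probe set) in the 9 epithelial samples, coloured by stage. In 9 probe sets the stages form separate steps down from normal to dysplasia to SCC; the dim Krtap13-2l1 is the exception.

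Most soft keratins differed less. Over the 24 measured keratins, a list that also holds the hard keratins Krt86 and Krt33b, 3 lay above and 8 below without overlap, 2 met the study's thresholds in each direction, Krt86 alone passed, and the median difference was -0.12. Krt13 and Krt4, of the suprabasal oral epithelium, differed by -0.09 and -0.14. Krt14, of basal cells, and Krt6c, of stressed and oral epithelium, differed by 0.04 and 0.03, and both signs turned after alignment on the spike-in controls. These 4 read between 13.91 and 14.32 in all 6 samples, near the top of the scale. Krt15, a basal keratin, read 12.33, 12.30 and 12.42 and then 11.30, 11.37 and 12.05. Krt7, of simple epithelia, read 6.34, 6.52 and 6.12 and then 7.38, 7.53 and 7.24, a difference of 1.06 ± 0.15 (limma adjusted p = 0.0750). Krt23, a type I keratin, read 12.23, 12.08 and 12.20 in normal epithelia, 10.32, 11.08 and 10.67 in dysplasia and 10.15, 9.49 and 9.82 in SCC, so it too stepped down without overlap, by -0.87 in the second step.

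Genes of the barrier, of junctions and of squamous transcription had medians near 0, with single members farther off. None passed the test. Among 20 genes of the cornified envelope and barrier, 3 lay above and 0 below, with a median difference of -0.02, and Klk6, a secreted peptidase, read 8.46, 9.19 and 9.23 and then 11.80, 9.61 and 9.73. Of 21 genes of desmosomes and tight junctions, 1 lay above and 6 below (median -0.06), against 11.8% of all genes below. The tight junction gene Cldn3 differed by -1.04 ± 0.23, Cldn8 by -0.69 and Ocln by -0.51, whereas the desmosomal cadherin Dsc2 differed by 0.66. Of 20 squamous transcription factors, 1 lay above and 6 below (median -0.16). Msx2 read 8.69, 8.76 and 8.35 and then 6.32, 7.75 and 7.72, a difference of -1.34. Another probe set of it differed by -1.38 without overlap, and a dim one, at 4.56 or less, by -0.19. Dlx3 differed by -0.55 and Pax9 by -0.36, and Elf5 by 0.80.

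The remaining large falls by rank, none of which passed the test, had other roles. Lrrc15, a leucine-rich repeat membrane protein, read 10.52, 10.51 and 9.35 and then 7.67, 8.86 and 7.58. Uimc1, a ubiquitin-binding protein of DNA repair, read 8.91, 8.52 and 8.32 and then 6.85, 7.19 and 6.80 (-1.64 ± 0.20, limma adjusted p = 0.0552), but its other 2 probe sets differed by 0.06 and 0.15, so the gene's level is uncertain. Enzymes were among them too: the aldehyde oxidase Aox4 differed by -1.89 and the flavin monooxygenase Fmo2 by -1.67. The iron reductase Cybrd1 differed by -1.54, the exchange factor Arhgef26 by -1.69, the thyroid hormone-binding Crym by -1.77 and Tmem229a by -1.93. Aox4 and Crym were lowest in SCC sample 1, at 7.91 and 7.11 against 9.54 or more and 8.68 or more in the others.

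Of the IL-1 family and the 2 chemokine lists, 0 genes passed the test. Il1b, IL-1 beta, read 9.16, 6.33 and 7.11 in dysplasia and 10.41, 10.61 and 9.25 in SCC. The groups did not overlap, but SCC sample 3 exceeded dysplasia sample 1 by little, and the difference of 2.56 ± 0.64 had a limma adjusted p of 0.171. Il1a, the other agonist, differed by 0.68 ± 0.22 and the receptor Il1r1 by 1.09 ± 0.34, both without overlap. Other probe sets of both genes overlapped, with 0.32 for Il1a. The decoy receptor Il1r2 differed by 0.87 with overlap, and Il33, a related alarmin of epithelial nuclei, by -0.66. Among the 21 IL-1 family and inflammasome genes, 4 lay above and 1 below, and the median difference was 0.07.

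Of 19 CXC chemokines and receptors, 8 lay above without overlap and 0 below, 8 met the study's thresholds, 14 were higher in the mean, and the median difference was 0.48. Cxcl2, a neutrophil attractant, read 9.21, 6.17 and 7.60 and then 11.21, 10.42 and 9.48. The dysplasia samples spanned 3 units here, and sample 1, the highest in Il1b, was again the highest. Cxcl1, of the same function, read 8.27, 7.51 and 7.33 and then 10.28, 9.88 and 9.05 (2.03 ± 0.35, limma adjusted p = 0.0901). Cxcl13, a B cell attractant, differed by 3.44 ± 0.86 and ranged from 6.86 in SCC sample 3 to 11.02 in sample 2. Of 20 CC chemokines and receptors, 6 lay above and 1 below, and 14 were higher in the mean (median 0.63, or 0.37 without SCC sample 2). Ccl2, a monocyte attractant, read 8.74, 8.66 and 9.74 and then 11.21, 10.78 and 10.14, and in normal epithelia 4.59, 4.99 and 5.12. The larger of its 2 steps was thus the one from normal to dysplasia. Ccl4 differed by 1.96, Ccr1 by 1.46, Ccl17 by 0.89 and Ccl20 by 0.69.

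S100a8 and S100a9 form calprotectin, which both neutrophils and stressed squamous cells make. S100a9 read 11.07, 10.18 and 10.34 and then 12.37, 12.94 and 12.14, and S100a8 11.18, 10.40 and 10.89 and then 12.26, 12.61 and 11.97. Neither pair of groups overlapped, and the limma adjusted p were 0.0958 and 0.0854. S100a6 differed by 0.84 ± 0.11 (limma adjusted p = 0.0604) with SCC samples at 13.06, 12.90 and 12.82, and S100a4 by 1.58. Ptgs2 (COX2), the inducible prostaglandin synthase, read 8.30 or less in dysplasia and 9.70, 8.97 and 8.86 in SCC. Icam1, an adhesion molecule for leukocytes, differed by 0.63, Cd40 by 0.69 and Il10 by 1.75. Of 31 other cytokine and prostanoid genes, 7 lay above and 0 below, with a median difference of 0.16.

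**Figure D3:**
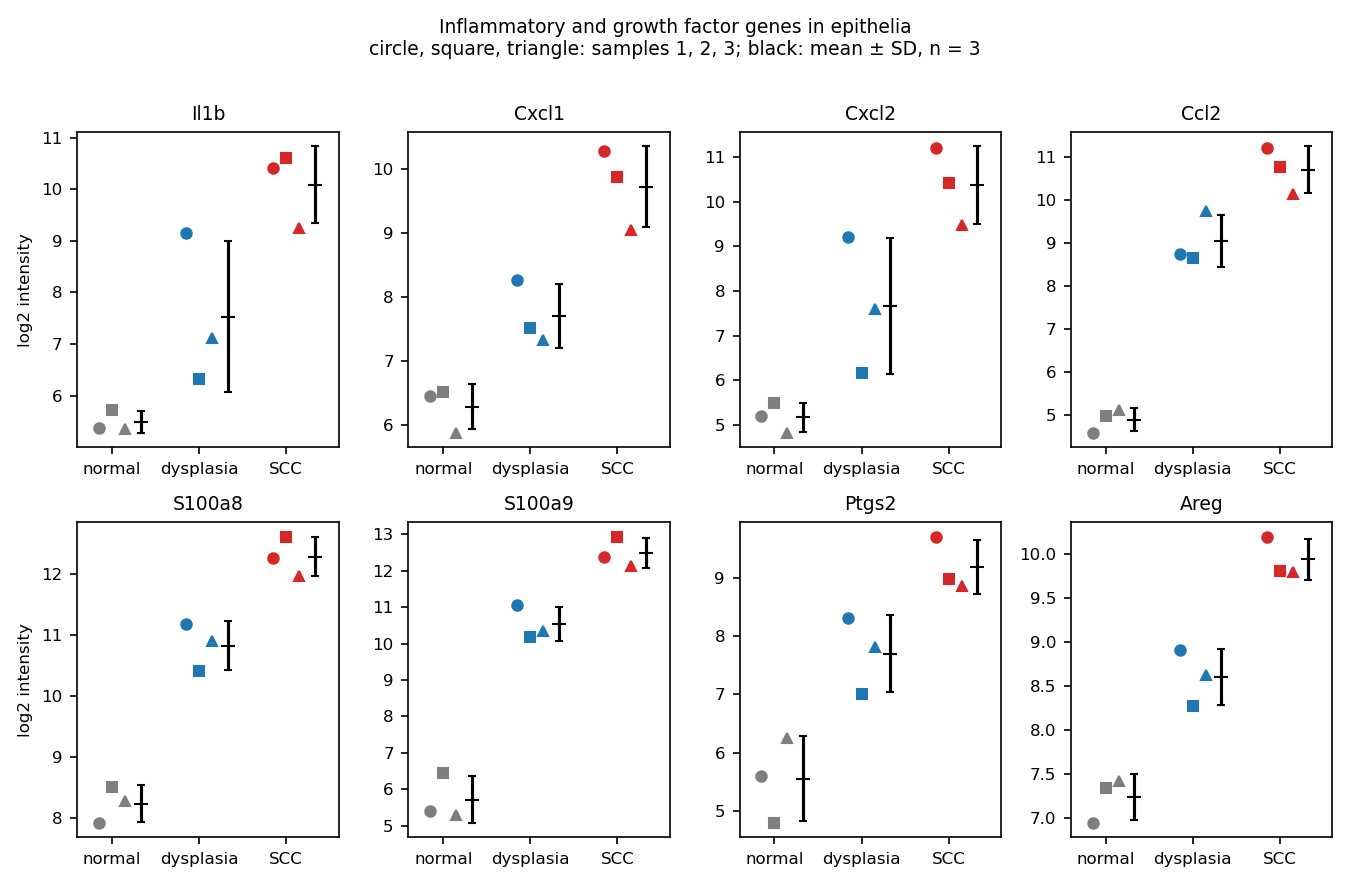
Log2 intensity (y axis, a separate scale per panel) of 8 inflammatory and growth factor genes in the 9 epithelial samples by stage. Points are samples and black marks are the mean ± SD of 3. The SCC samples lie above the dysplasia samples in each panel, narrowly for Il1b (9.25 or more against 9.16 or less). Dysplasia sample 1 is the highest of its group for Il1b, Cxcl1, Cxcl2, S100a8, S100a9 and Areg, though not for Ccl2.

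Of 25 interferon-induced genes, 11 lay above without overlap and 0 below, 10 met the study's thresholds, 0 passed the test and the median difference was 0.91, or 0.40 without SCC sample 2. Isg15, a ubiquitin-like antiviral protein, read 7.25, 6.70 and 7.46 and then 9.10, 9.97 and 7.89. Mx1 read 3.97, 3.82 and 3.97 and then 5.78, 7.84 and 4.62, and Gbp2 6.07, 6.44 and 6.82 and then 8.50, 8.91 and 7.04. SCC sample 2 was the highest in 22 of the 25 genes and sample 3 the lowest in 20. Slfn4, a Schlafen gene of activated macrophages, differed by 3.39 ± 0.68. Of 20 genes of MHC and antigen presentation all were higher in the mean (median of the list 0.38). Only RT1-Da and Tapbp lay above without overlap (0.80 and 0.37), against 8.55% of all genes.

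Of 21 collagen chains 5 lay above and 0 below without overlap, 8 met the study's thresholds, and the median difference was 1.74. Without SCC sample 2 that median was 0.66 and without sample 3 it was 2.71. Of 27 matricellular and elastic fibre genes 3 lay above and 0 below, against 8.55% of all genes above. Among the 27, 12 met the study's thresholds and the median was 1.82, or 0.82 without SCC sample 2. Col4a1, a chain of the basement membrane's collagen, read 6.37, 5.51 and 5.38 in dysplasia and 9.13, 10.92 and 7.01 in SCC on the probe set named by rank (3.27 ± 0.88), and its partner Col4a2 differed by 2.13. Nid1, nidogen, read 6.14, 6.44 and 6.05 and then 8.84, 11.11 and 7.09, while a second probe set of it differed by -0.01. Fn1, fibronectin, read 7.59, 6.90 and 7.30 and then 9.83, 12.24 and 7.79. In each of these SCC sample 2 was highest and sample 3 lowest. Tnc, tenascin C, was more even, with 10.06, 9.47 and 9.50 and then 10.73, 11.40 and 10.74 (1.28 ± 0.22, limma adjusted p = 0.0901).

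Laminin and adhesion genes of the basement membrane zone (22 measured, median difference 0.25) had 6 members above and 0 below. Lama3, a chain of the epithelial laminin 332, read 8.48, 8.46 and 8.41 and then 9.28, 8.54 and 9.43. Here SCC sample 2 was the lowest of the 3. Lama4, Lamb1 and Lamc1, chains of vascular and interstitial laminins, differed by 1.80, 0.99 and 0.80, and SCC sample 2 was the highest in each. The classical cadherin Cdh3 (P-cadherin) differed by 0.62 and Cdh2 (N-cadherin), with 1 probe set at -0.15 and others at 1.34 and 1.55, is uncertain. Tagln, of contractile cells, ranged from 6.26 to 11.03 in SCC, and Thy1, of fibroblasts, from 6.12 to 9.93. Pxdn, which crosslinks type IV collagen, C1s, a complement protease, and Pakap differed by 2.63, 2.58 and 2.80. None of these genes passed the test. Other probe sets of Slfn4 (-0.34), Il1r1 (-0.00 and 0.16), Plaur (0.01), Lama4 (0.15), Lamc1 (-0.06), P4ha2 (0.07), Fgfr1 (0.47), Pakap (0.16 and 0.69), Cdkn2c (0.18), Tgfb2 (0.32), Dll4 (0.00) and Tmem229a (-0.11 and -0.19) did not show the differences given for these genes, whose levels are uncertain. The same held for Il1a (0.32), Plau (0.42), Ndrg1 (0.27) and Nefl (-0.31), whose groups overlapped on these probe sets. A further Pakap probe set did rise, by 1.93 ± 0.58 without overlap.

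The levels of the cell type markers in the same samples were as follows, and their part in the results on proteases, matrix, chemokines and interferon-induced genes was not tested. Of 18 fibroblast markers 17 were higher in the mean, and 2 lay above without overlap, against 8.55% of all genes. Their median difference was 2.23, or 0.97 without SCC sample 2 and 3.46 without sample 3. Postn, periostin, read 9.08, 7.22 and 7.41 and then 12.01, 13.30 and 8.18. Of 22 macrophage and monocyte markers all were higher in the mean, 10 lay above without overlap, 14 met the study's thresholds and the median difference was 1.32. Fcer1g, a signalling chain of Fc receptors, read 8.13, 7.18 and 7.58 and then 10.14, 11.12 and 8.23, and Tyrobp 8.68, 7.76 and 8.24 and then 10.44, 11.25 and 9.15. With all samples 0 of the 22 passed the test, and 0 without SCC sample 1 or 2. SCC sample 3 was the lowest SCC sample in all 22. With that sample left out 16 passed, against 2.55% of all genes. Leaving out the lowest sample raises the difference of each of the 22, so the 16 are no separate evidence.

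Of 9 measured neutrophil markers 6 lay above without overlap (median 1.39, or 0.84 without SCC sample 2), among them Lcn2, an iron-carrier binding protein that epithelia also make, with 6.26, 4.90 and 5.32 and then 7.97, 11.61 and 6.58. Their mean level was 6.36 to 6.86 in dysplasia and 7.18 to 8.40 in SCC, so all SCC samples were above. The list also holds S100a8 and S100a9, which stressed squamous cells make too, and 3 of the 9 read under 6 in all SCC samples. Mast cell markers (12 genes) stood at 4.49 to 4.86 in dysplasia and at 6.18, 7.01 and 4.61 in SCC. Tpsab1, a mast cell tryptase, read 5.42, 4.95 and 4.96 and then 8.22, 8.97 and 4.76, high in SCC samples 1 and 2 only. Endothelial markers (14 genes) had 0 members without overlap and stood at 7.42, 8.79 and 6.48 in SCC against 6.29 to 6.82. Markers of T and NK cells (19 genes, median 0.22) had 1 member above and 2 below, and 6 of them read under 6 in all SCC samples. Among B and plasma cell markers (9 genes, median 0.17) 1 lay above, and among salivary gland markers (12 genes, median 0.03) 0 lay apart in either direction, with 9 of the 12 under 6 in all SCC samples. Pericyte and smooth muscle markers (12 genes, median 1.11, or 0.71 without SCC sample 2) had 3 members above, and those of erythrocytes and platelets (9 genes, 0.12) and adipocytes (8 genes, 0.16) had 0. Cadherins and EMT factors (13 genes, 0.07) had 1 above and 1 below, and S100 genes (15, 0.23) 6 above and 2 below. Without SCC sample 2 the medians were 0.54 for mast cells (0.88 with it), 0.47 for endothelium (1.12), 0.10 for T and NK cells, 0.01 for B and plasma cells, -0.07 for adipocytes and 0.05 for S100 genes.

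**Figure D4:**
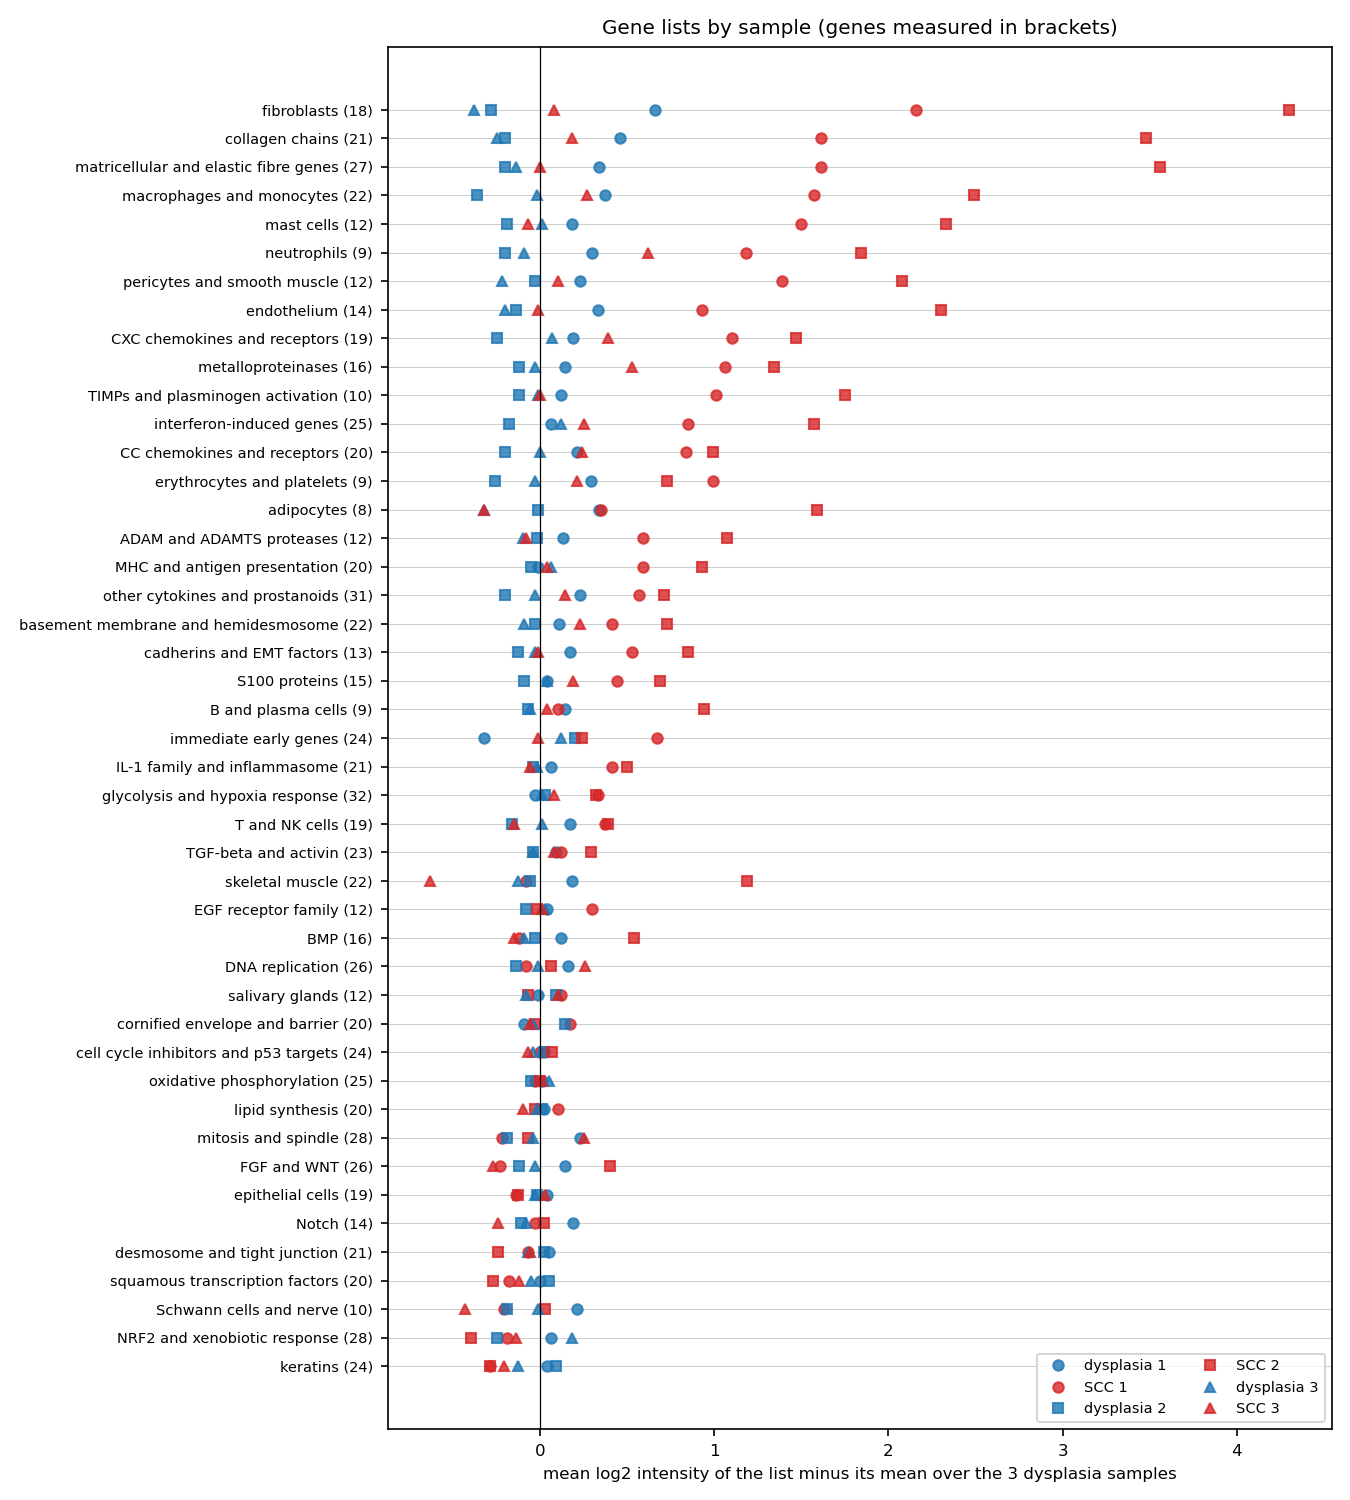
Mean log2 intensity of each gene list in each sample minus its mean over the 3 dysplasia samples (x axis), for the gene lists ordered by their mean difference (y axis, number of genes measured in brackets). Lists of fibroblasts, matrix and macrophages spread widely, with SCC sample 2 farthest right and SCC sample 3 near dysplasia, and lists of epithelial cells and of the cell cycle lie near 0.

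Genes of division overlapped between the stages for nearly all members. Of 28 genes of mitosis and spindle, 0 passed the test or met the study's thresholds, 1 lay above (Cenpk, 0.31) and 1 below (Cenpf, -0.42), and the median difference was -0.01. Their mean level was 9.61, 9.19 and 9.34 in dysplasia and 9.16, 9.31 and 9.63 in SCC, and both groups lay above the normal samples at 8.66, 8.07 and 8.56. DNA replication genes (26, median 0.07) had 1 member above, the clamp loader subunit Rfc4 with 0.61 ± 0.18. In both lists SCC sample 3 was the highest of the SCC samples. Of 24 cell cycle inhibitors and p53 targets 1 lay above and 6 below (median -0.03): Gadd45a differed by 0.52, Ccnd2, a cyclin, by -0.75, and the inhibitors Cdkn2c and Cdkn2b by -0.35 and -0.33.

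Of 28 NRF2 targets and xenobiotic genes, 5 were higher in the mean, 0 lay above and 2 below without overlap, Cyp1a1 with -0.46 and Me1 with -0.35, and the median difference was -0.21. Of 32 genes of glycolysis and the hypoxia response, 27 were higher in the mean, 8 lay above and 1 below, and the median was 0.12. Slc16a3, a lactate exporter, read 7.75, 7.38 and 7.65 and then 8.93, 8.45 and 8.47 (1.02 ± 0.16, limma adjusted p = 0.0750). The collagen prolyl hydroxylases P4ha1 and P4ha2 differed by 1.05 and 1.19 and Ndrg1 by 0.62. Oxidative phosphorylation (25 genes, median -0.05) had 4 above and 1 below, and lipid synthesis (20 genes, median -0.07) 0 above and 5 below. Of 24 immediate early genes 6 lay above and 0 below (median 0.20), with Rgs1 at 1.41 and Rgs2 at 1.19.

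The study names 24 of the genes on the array, some of them from these samples and some from its other experiments, so the counts of that list are not independent evidence of a direction. Of the 24, Mmp13 and Mmp9 passed, 13 lay above without overlap and 0 below, and the median difference was 0.66. Among those whose groups overlapped were Myc (0.02), Glrx (-0.06), Hmox1 (-0.10), Vsnl1 (-0.15), Gsdma (-0.38), Anxa9 (-0.40) and Dbp, a circadian transcription factor (-0.70). Fos, an immediate early transcription factor, read 9.41, 12.24 and 12.11 in dysplasia and 12.32, 10.25 and 11.28 in SCC, so its spread within each stage exceeded the difference of 0.03.

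The spread among the 3 SCC samples was larger than in the other stages. The SD of a probe set over 3 samples had a median of 0.188 in SCC, 0.166 in dysplasia and 0.152 in normal epithelia, and it was over 1 for 934 probe sets (3.01%) in SCC, 76 (0.245%) in dysplasia and 148 (0.477%) in normal epithelia. The typical probe set therefore varied only a little more in SCC, and the excess lay in a few percent of them. Of the 934, SCC sample 2 was the highest in 807, sample 3 the lowest in 804, and the order 2 over 1 over 3 held in 751. SCC sample 3 lay within the range of the dysplasia samples in 493 of them.

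**Figure D5:**
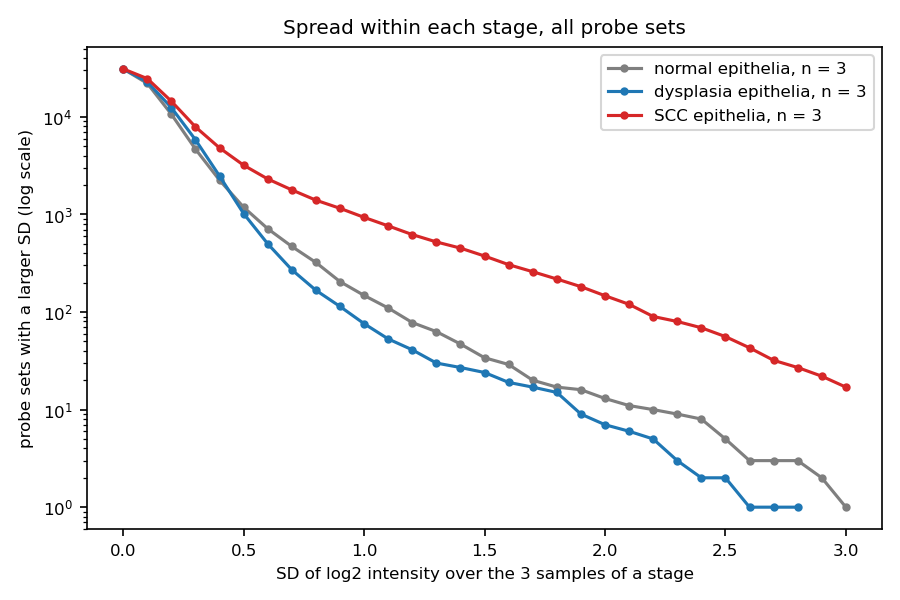
Number of probe sets (y axis, log scale) whose SD of log2 intensity over the 3 samples of a stage exceeds the value on the x axis, for normal, dysplasia and SCC epithelia. Beyond an SD of 1 the SCC curve counts 934 probe sets, the dysplasia curve 76 and the normal curve 148.

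As a whole profile, SCC sample 3 correlated with the dysplasia samples at 0.987 to 0.988 (Pearson's r across probe sets, which are not independent), SCC sample 1 at 0.973 to 0.974 and SCC sample 2 at 0.953 to 0.958. The SCC samples correlated with each other at 0.971 (1 and 2), 0.979 (1 and 3) and 0.962 (2 and 3), and the dysplasia samples at 0.988 to 0.991. SCC sample 3 was thus closer to each dysplasia sample than to either SCC sample. Against the dysplasia mean, 1074 probe sets were at least 1 higher in SCC sample 1, 1713 in sample 2 and 130 in sample 3, and 387, 243 and 242 were at least 1 lower. The counts of lower probe sets were alike in samples 2 and 3, and the counts of higher ones were not.

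The genes with the widest range over the SCC samples were mostly of stroma and muscle. Lox, which crosslinks collagen, read 8.27, 11.51 and 4.57 in SCC samples 1 to 3, against 5.01, 3.84 and 3.92 in dysplasia. Tnn, tenascin N, ranged from 4.83 in sample 3 to 11.42 in sample 2, and Sfrp2, a secreted WNT modulator, 5.75, 10.89 and 5.03. For Thbs4 (6.78, 11.05 and 5.44) SCC samples 1 and 3 lay within the range of the dysplasia samples, and sample 2 alone stood above. Col1a2, Fbn1, Thbs2 and Spp1 followed the order 2 over 1 over 3 with ranges of 6.03, 5.54, 5.55 and 5.61. The skeletal muscle genes Acta1 (8.34, 11.30 and 4.72) and Myl1 (6.57, 10.29 and 4.24) were in SCC sample 3 below every dysplasia sample, whose lowest values were 7.78 and 6.87. The tongue's own muscle lies under the mucosa, and the skeletal muscle list (22 genes) stood at 6.35, 7.62 and 5.80 in SCC and at 6.61, 6.37 and 6.30 in dysplasia.

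Each SCC sample also had genes of its own, picked here by the size of their gap after the values were seen. SCC sample 1 stood at least 1 above both others in 357 probe sets and below in 80. Hbb, beta globin, read 10.85 there against 8.34 and 7.93, Dusp1, an immediate early phosphatase, 9.92 against 6.31 and 7.42, and Klk6 11.80 against 9.61 and 9.73. SCC sample 2 stood above in 1100 and below in 42, among the former the matrix genes Ogn (9.20 against 4.34 and 2.73) and Fmod (10.90 against 6.59 and 5.56). SCC sample 3 stood above in only 35 and below in 534, among the latter Mgp, a calcification inhibitor of connective tissue, at 7.77 against 12.34 and 13.29.

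The 8 probe sets that passed the test had ranges over the SCC samples of 1.11 for Mmp13, 1.00 for Krt86, 0.54 for Inhbb and 0.33 or less for the others, against differences from dysplasia of 1.07 or more in size. A narrow range favours passing this test. The other 14 of the 15 largest differences upward ranged by 1.73 (Cxcl2) to 5.02 (Lcn2).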

How the data were processed

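RNA of 18 samples was hybridised to Affymetrix rat expression arrays. The authors deposited a linear intensity for each probe set. RMA and the Affymetrix Expression Console appear, without versions, in the submitters' processing notes. RMA output is on a log scale, and its conversion is not described. Arrays give no read depth, so the number of arrays limits the precision.

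From the 31099 probe sets the 57 control sets were removed, and 31042 were tested on the log2 of the intensity. GEO's platform annotation gave 20826 probe sets 1 gene, 436 several and 9780 none, and 20758 symbols were updated by gene ID. Of 1002 genes on the lists, 874 were measured, with 1 probe set per gene in list counts. Limma 3.58.1 in R 4.3.3 (lmFit and eBayes) fitted the 9 epithelial arrays, with Benjamini-Hochberg adjustment over all probe sets and a call at 0.05. Scripts were tested on simulated data. Members and lists were chosen with earlier results of these data known.

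Named genes were the called probe sets, the 15 largest rises and falls with a fold of 2, an unadjusted p under 0.05, no overlap and a mean log2 of 7 in the higher group, up to 4 members per list with the largest differences without overlap, the 10 widest ranges over the SCC samples, the genes the study named, and the 3 brightest markers per cell type. Second probe sets and the genes peculiar to 1 SCC sample were chosen after values were seen. Alternatives changed the arrays fitted, the replicate block, the variance model, the scaling, the filter on dim probe sets, the fold and the library left out.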

Additional observations from a re-analysis of the deposited data

Results flagged for a closer look

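The change from dysplasia to SCC differed between the epithelium and the fibroblast samples for 3 of the named probe sets and for second probe sets of 4 named genes, by the interaction term in limma over all 18 arrays, in which 202 of 31042 probe sets (0.651%) passed. The fit took all 18 arrays as independent. In the macrophage and monocyte markers, fibroblast samples 1 and 2 read 8.52 and 8.44 in dysplasia and 9.8 and 9.83 in SCC. Sample 3 stood apart, at 10.1 and 11.29. Whether samples 1 and 2 of a stage share rats is not given, and the SE and adjusted p of the interaction do not allow for it. Per the methods both layers were taken from the same lesions, and the labels do not say whether same-numbered samples share rats. For Nefh the difference of the changes was -2.78 ± 0.38 (adjusted p = 0.00563), with -1.98 in epithelia and 0.80 in fibroblasts, where it read 6.03, 5.81 and 4.96 in dysplasia and 6.15, 6.20 and 6.85 in SCC. For Ppbp, a platelet chemokine, it was -2.47 ± 0.41 (adjusted p = 0.0131), with 1.04 in epithelia and 3.51 in fibroblasts, where the SCC samples read 9.67, 9.98 and 9.99. For Il1rap, the shared chain of IL-1 receptors, it was -1.27 ± 0.21 (adjusted p = 0.0128), with 0.30 in epithelia and 1.56 in fibroblasts. Another probe set of Il1rap did not pass the interaction test (-0.37, adjusted p = 0.666). Among second probe sets the difference was -1.71 ± 0.24 for Plaur (adjusted p = 0.00563), -3.0 ± 0.55 for Il1a (adjusted p = 0.0211), -1.19 ± 0.23 for Id2 (adjusted p = 0.0289) and -1.25 ± 0.26 for Glrx (adjusted p = 0.0429), whose changes in fibroblasts were 1.72, 3.32, 0.61 and 1.14. The named probe sets of these 4 genes had the same sign but did not pass the interaction test. They gave -1.06 for Plaur (adjusted p = 0.419) and -1.56 for Il1a (adjusted p = 0.192). Id2 gave -0.86 (adjusted p = 0.124) and Glrx -0.77 (adjusted p = 0.192). The layer difference of these genes is thus uncertain. The Plaur probe set that passed was dim in epithelia, with a mean of 4.89 in dysplasia and 4.9 in SCC.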

How the results depend on the processing

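All 8 called probe sets kept their direction wherever they were tested, but the number of calls moved. It was 0 with only the 6 compared arrays (3635 at an unadjusted p under 0.05) and 0 by the methods' t-test after Benjamini-Hochberg adjustment (3019), 69 with all 18 arrays, 68 with a trended robust variance, 16 with array weights, 80 among probe sets of mean log2 above 7, 19 with an offset of 32, 20 after quantile normalization and 43 after spike-in alignment, and 0 to 736 leaving out one sample. With the replicate block 3 passed and 712 met the study's thresholds. Deviations from the stage mean correlated at -0.022, -0.074 and 0.051 for same-numbered dysplasia and SCC samples. Different-numbered ones gave -0.15 to 0.15. With 3 samples a stage this cannot tell whether the numbers pair samples, and numbers were not compared between layers. The count by the study's thresholds was 219 by the methods' t-test, 225 above log2 7, 378 with the offset, 378 with 1 probe set per gene, 1670 at a fold of 1.5, 145 at 4, and 421 (without SCC sample 2) to 1324 (without SCC sample 3) leaving out one sample. The 443 without overlap at a fold of 2 became 176 above log2 7, 263 with the offset, 270 with 1 probe set per gene, 1315 at a fold of 1.5, 78 at 4, and 393 to 1309 leaving out one sample (777 without dysplasia sample 1, 1309 without SCC sample 3). The 934 probe sets of wide SCC spread became 193 above log2 7, 489 with the offset, 486 with 1 per gene and 562 to 1197 leaving out one SCC sample. Of the named genes' alternatives 20 turned the sign, all of genes with a difference of at most 0.13 in size. Myl1 was 0.05 with weights, 0.20 with the offset and -1.75 to 1.27 leaving out one sample, Acta1 0.08, 0.22 and -1.65 to 1.64. Fos was -0.52 with weights, -0.89 to 0.55 leaving out one sample and -0.06 after spike-in alignment, which also gave Myc -0.07, Krt14 -0.05 and Krt6c -0.06. Leaving out one sample gave Hmox1 -0.29 to 0.18, Myc -0.03 to 0.10 and Glrx -0.12 to 0.01. The cause of these shifts was not tested.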
